A study of Mus musculus with 12 samples.

Results

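Clustered histone genes were taken as every row of the deposited count table whose symbol begins with Hist1h, Hist2h, Hist3h or Hist4h, which gave 68 of 24328 gene symbols. The study measured RNA by sequencing in sorted microglia, which are macrophages resident in the brain, from of wild-type Balb/c mice, with 4 mice and 4 libraries in each of 3 groups. Control mice were untransplanted, and the labels describe irradiation for recipients alone. Syngeneic mice were lethally irradiated and given 5000000 syngeneic bone marrow cells with 300000 syngeneic T cells, and allogeneic mice were irradiated in the same way and given the same numbers of allogeneic bone marrow and T cells. Both transplanted groups were examined on day 14, described as the peak of graft-versus-host disease, so a comparison with control holds irradiation, transplantation and time together, and these cannot be told apart. The donor strain is not stated. Mouse clustered histone genes lie in 4 clusters, and the rows comprised 54 of Hist1 on chromosome 13, 10 of Hist2 on chromosome 3, 3 of Hist3 on chromosome 11 and 1 of Hist4 on chromosome 6. By protein they were 6 H1 rows, 18 H2A rows, 19 H2B rows, 12 H3 rows and 13 H4 rows.

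Clustered histone genes supply the core histones H2A, H2B, H3 and H4, around which DNA is wound, and the linker histone H1, which binds where DNA enters and leaves the nucleosome. Most are transcribed together as cells replicate their DNA, and their mRNAs typically end in a conserved stem-loop bound by the stem-loop binding protein, in place of a poly(A) tail. Some clustered genes can also be read through the stem-loop to a polyadenylation signal, which gives tailed mRNAs in cells that do not divide. A separate set of histone genes outside the clusters encodes replacement variants such as H2A.Z and H3.3, whose mRNAs carry poly(A) tails and are made without replication.

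The stem-loop was searched as GGNNNNTTNNNNNNCC with all 6 base pairs of the stem intact, on the sense strand of GENCODE transcripts of build GRCm38, and was found in 44 of 67 protein-coding clustered histone genes (65.7%), against 86 of 21810 other protein-coding genes (0.394%). The letters below are shown because this element is what sets these mRNAs apart, and because its forms differ between members described below. Capitals mark the 16-base stem-loop, with 5 flanking bases on each side.
Hist1h1e: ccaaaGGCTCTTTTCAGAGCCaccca
Hist1h1c: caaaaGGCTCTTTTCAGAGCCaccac
Hist3h2a: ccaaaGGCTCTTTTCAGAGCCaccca
Hist1h2ae: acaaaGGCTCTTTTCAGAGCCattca
Hist1h4d: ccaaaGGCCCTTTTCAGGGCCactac
Hist1h4i: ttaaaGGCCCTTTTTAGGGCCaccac
Hist2h4: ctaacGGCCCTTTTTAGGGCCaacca
Hist1h2bb: ccaaaGGCTCTTTTAAGAGCCaccca
The first 4 of these, 2 linker histone and 2 H2A genes, had the same 16 bases, the form found in 26 of the 44 members. The form of Hist1h4d occurred in 7 members, the form shared by Hist1h4i and Hist2h4 in 2, and the form of Hist1h2bb in 6. An AATAAA or ATTAAA polyadenylation signal began within the last 50 bases of the transcript model in 17 of 67 members (25.4%), against 17033 of 21810 other genes (78.1%). A missing match says only that these letters are not in the model: the models of Hist1h2bc and Hist1h1b held no stem-loop, and that of Hist1h2bb ends soon after it.

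Promoter windows of RefSeq on build GRCm38.p6, from 250 bases before to 50 after the start, were matched for 61 of the 68 members, 1 of them with more than 1 start, giving 62 windows. Searched on both strands, TATAAA was in 56.5% of the windows and in 13.5% of 32789 windows of other genes. CCAAT was in 85.5% against 37.3%, ATTTGCAT, the octamer, in 22.6% against 1.7%, and AAACACA, an element known from linker histone promoters, in 14.5% against 7.2%. By protein class, TATAAA was in 40 to 66.7% of windows of each class. AAACACA was in 5 of 6 H1, 2 of 17 H2A and 2 of 17 H2B windows and in no H3 or H4 window, ATTTGCAT in 7 of 17 H2A and 7 of 17 H2B windows and in none of the H1, H3 or H4 windows, and CCAAT in 3 of 12 H4 windows and in every window of the other classes. In at least 1 comparison with control, Hist1h1b, Hist1h2ae, Hist3h2a and Hist2h2be passed the test under every alternative setting tried, and the windows of the first 3 are shown for that reason. Capitals mark any of these 4 motifs on either strand.
Hist1h1b (chr13:21780576-21780875, minus strand): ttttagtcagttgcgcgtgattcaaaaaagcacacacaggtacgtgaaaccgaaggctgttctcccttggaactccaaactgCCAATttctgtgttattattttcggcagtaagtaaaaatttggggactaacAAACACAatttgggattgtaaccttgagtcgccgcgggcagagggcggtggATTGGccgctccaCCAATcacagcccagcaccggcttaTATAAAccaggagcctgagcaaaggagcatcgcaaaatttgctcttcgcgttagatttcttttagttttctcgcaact
Hist1h2ae (chr13:23571171-23571470, minus strand): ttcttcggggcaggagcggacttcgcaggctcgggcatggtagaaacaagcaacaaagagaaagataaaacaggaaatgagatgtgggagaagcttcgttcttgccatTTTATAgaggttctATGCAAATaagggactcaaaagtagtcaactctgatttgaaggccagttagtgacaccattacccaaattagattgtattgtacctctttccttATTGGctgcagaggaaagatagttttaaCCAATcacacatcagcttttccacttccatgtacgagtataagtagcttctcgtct
Hist3h2a (chr11:58954435-58954734, plus strand): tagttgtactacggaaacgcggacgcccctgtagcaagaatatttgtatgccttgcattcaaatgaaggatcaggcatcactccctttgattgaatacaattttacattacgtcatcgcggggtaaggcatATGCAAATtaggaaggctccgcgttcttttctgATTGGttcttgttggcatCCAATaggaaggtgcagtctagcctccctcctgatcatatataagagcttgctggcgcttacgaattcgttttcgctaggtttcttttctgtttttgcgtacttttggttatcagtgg
Hist1h1b held the H1 element, a TATAAA box and several CCAAT boxes. Hist1h2ae held an octamer and CCAAT boxes, and its 1 TATAAA match lay on the opposite strand, as TTTATA. In the overlapping window of the H2B gene Hist1h2bg the same bases read TATAAA. Hist3h2a held an octamer and CCAAT boxes and no TATAAA, and these 2 H2A windows thus shared motifs although the genes moved in opposite directions. A match is a description of the letters and not a measured binding site.

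Few clustered histone genes had enough counts to be tested. The libraries held 32652208 to 46126118 counts, of which the members took 32642 in all. At least 1 count was found for 56 members and none for 12. Only 14 members had counts in all 12 libraries, and the 4 highest held 67.4% of member counts and the 10 highest 92.5%. The filter on low counts was passed by 19 members, which held 98.5% of member counts. Another 37 had 1 to 75 counts in total, with a median of 8, and their summed level was 0.318 to 1.56 CPM per library, where CPM are counts per 1000000 scaled library counts. Of those, Hist1h2bb, Hist1h2ab and Hist3h2ba had the most, with 75, 56 and 50 counts. For the 12 rows with no count, a level of up to 0.0202, 0.0181 and 0.019 CPM in the control, syngeneic and allogeneic groups is not excluded by 3 counts per group total, which covers counting error only.

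Most counts lay in members with under 50% of their 50-base windows shared with other genes, among them Hist1h2bc at 30.6%. Of 38 members in which under 50% of 50-base windows also occur in a gene elsewhere, 36 had counts, all 19 tested members were among them, and they held 99.3% of member counts. Of 15 members with 50 to 80% of windows shared, 14 had counts and the highest had 56. Among 15 members with at least 80% shared, 6 had counts, with a median of 0 over the 15 and 18 counts at most. No source used here says how the authors' counting treated reads that fit several genes, so the level of these near-identical copies is uncertain. Members whose transcript model ended within 60 bases after the stem-loop numbered 21, with a median of 5 counts and 2.53% of member counts. The 23 members whose model ran on further had a median of 100 counts and 57.4% of member counts, and the rest of the counts lay in 24 members with no stem-loop in the model. Over the 68 members, Spearman's rho with the total count was -0.63 for the share of windows held in common, -0.48 for GC content and 0.36 for model length, as a description over genes that share libraries and base composition. No source used here says whether polyadenylated RNA was selected for the libraries; the part of that step in these levels was not tested.

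**Figure D1:**
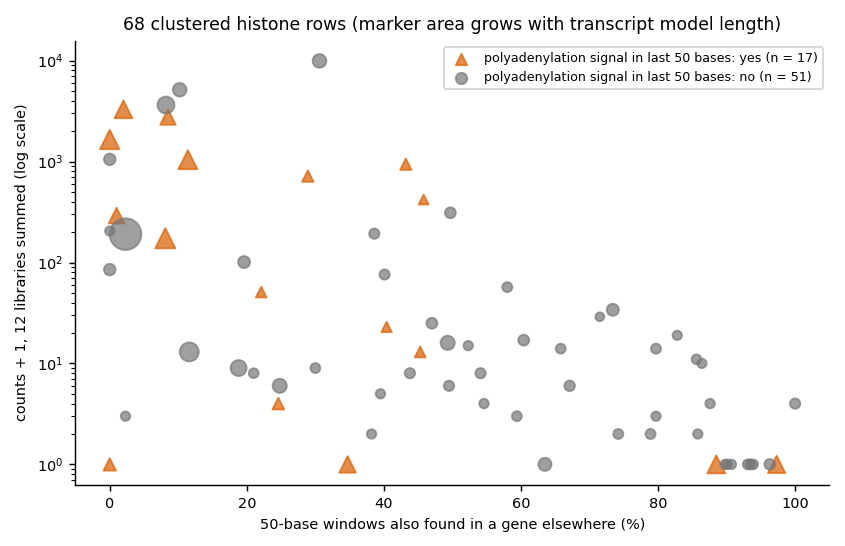
Total counts over 12 libraries (plus 1, log scale) of the 68 clustered histone genes against the percentage of their 50-base windows that also occur in a gene elsewhere; marker area grows with the length of the transcript model, and triangles mark the 17 models with a polyadenylation signal in the last 50 bases. No gene with at least 50% of windows shared had more than 56 counts, while Hist1h2bc reached 9940.

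Per length, Hist1h2bc, which encodes an H2B protein, was the highest member, at 18.8 CPM per kb of transcript model averaged over the 12 libraries. The H4 gene Hist1h4d followed at 9.56 CPM per kb. Then came the linker histone genes Hist1h1e at 3.95, Hist1h1c at 3.78 and Hist1h1b at 3.03 CPM per kb, with the H2A gene Hist3h2a at 3.09 CPM per kb between them. The order depended on the group. In control, Hist3h2a stood at 5.37 CPM per kb against 0.951 for Hist1h2ae, and in syngeneic at 2.07 against 5.13. H3 was barely detected at this depth: its 12 rows held 121 counts in all (0.371% of member counts) and none passed the filter.

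Taken over all 68 members, the summed level stayed close to that of control while genes of DNA replication and mitosis rose. The sum was 66.6 ± 9.14 CPM in control (SD, n = 4 here and below), 66.9 ± 9.50 in syngeneic and 74.3 ± 6.02 in allogeneic libraries. By library it was 79.9, 64.7, 62.5 and 59.3 CPM in control, 78.7, 61.6, 57.3 and 70.1 in syngeneic, and 83.2, 72.8, 69.8 and 71.5 in allogeneic. The ranges overlapped in all 3 comparisons, and the ratio of means was 1.01 for syngeneic to control and 1.12 for allogeneic to control. With library totals as the only scaling, the allogeneic sum was 65.2 and the control sum 75.3 CPM, so the order of the groups turned. A list of 6 members known to be made also as polyadenylated RNA summed to 39.0 ± 7.61, 35.8 ± 6.06 and 45.6 ± 4.29 CPM in control, syngeneic and allogeneic. The sum over all members thus rests largely on these 6, and the part of tailed mRNA in it was not tested. The sum of 29 DNA replication genes, such as Pcna and the Mcm helicase genes, was 394 ± 38.3, 1261 ± 117 and 1001 ± 57.0 CPM in control, syngeneic and allogeneic, and that of 18 mitosis genes such as Top2a and Mki67 was 56.0 ± 6.96, 658 ± 43.8 and 578 ± 67.7 CPM. Both sums were higher in every transplanted library than in every control library. In edgeR's quasi-likelihood test, 27 of 29 replication genes rose and 1, Pold1, fell in syngeneic against control (median log2 fold change 1.67, against -0.03 over all 12695 genes tested), and 25 rose and 2, Pola2 and Pold1, fell in allogeneic against control (1.41 against -0.07). All 18 mitosis genes rose in syngeneic and all but Plk1 (17 of 18) in allogeneic against control, with medians of 3.43 and 3.42. The share of all genes tested called higher was 26.4% in syngeneic and 28.2% in allogeneic against control, and the share called lower 25.6% and 29.1%. The replication and mitosis lists were chosen with earlier results of the data known. In bulk RNA, fewer cells of a type and less RNA per cell cannot be told apart, here and in every result below.

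**Figure D2:**
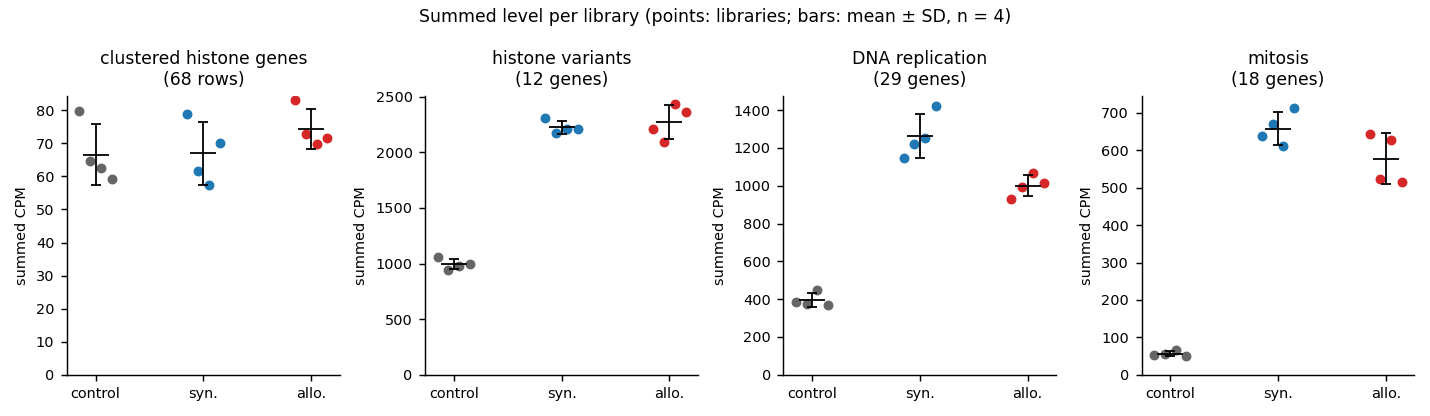
Summed CPM per library (points) with mean ± SD (bars, n = 4) for the 68 clustered histone genes, 12 histone variants, 29 DNA replication genes and 18 mitosis genes in control, syngeneic (syn.) and allogeneic (allo.) microglia. The clustered histone sum lay between 57.3 and 83.2 CPM with the groups overlapping, while the other 3 sums were higher in all 8 transplanted libraries than in the 4 control libraries.

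The gene clusters contributed differently to this sum in the 3 groups. Hist1 members summed to 45.4 ± 6.72 CPM in control, 58.9 ± 7.50 in syngeneic and 67.5 ± 6.42 in allogeneic libraries. Hist2 members summed to 8.76 ± 3.07, 3.38 ± 1.14 and 2.52 ± 0.715 CPM, and Hist3 members to 11.7 ± 3.38, 4.60 ± 1.16 and 3.96 ± 1.29 CPM. Every transplanted library was below every control library in Hist2 (highest transplanted 4.52, lowest control 5.46) and in Hist3 (5.79 and 8.25). In Hist1, the control range of 38.9 to 54.8 CPM overlapped the syngeneic range of 52.0 to 68.8 and not the allogeneic range of 63.2 to 77.1. These values use TMM factors, which were 1.096 to 1.159 in control and 0.844 to 0.8925 in allogeneic libraries. Library totals as the only scaling do not keep the control and allogeneic Hist1 sums apart. Each sum rests on few genes, which are given one by one below: Hist1h2bc, Hist1h4d, Hist1h1e and Hist1h1c in Hist1, Hist2h2be in Hist2 and Hist3h2a in Hist3.

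**Figure D3:**
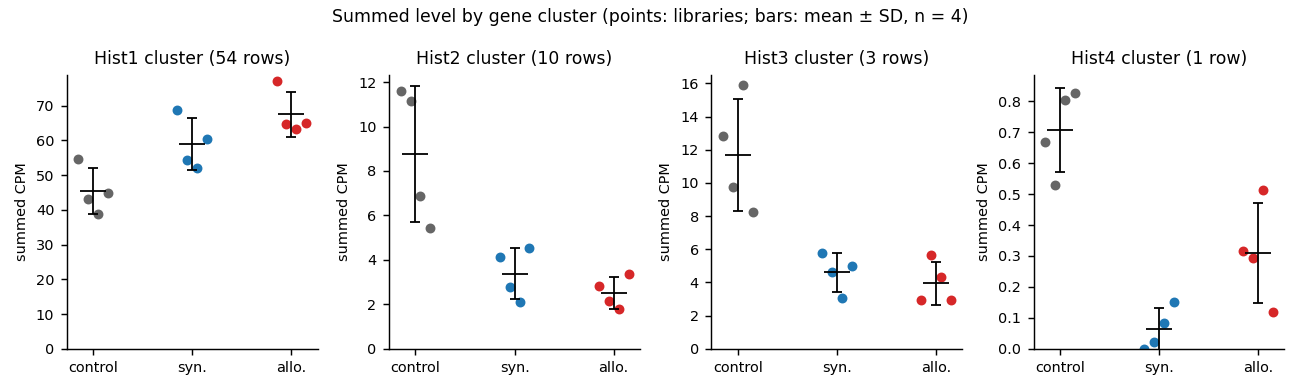
Summed CPM of the clustered histone genes of each gene cluster in each library (points), with mean ± SD (bars, n = 4). Hist2 and Hist3 were lower in all 8 transplanted libraries than in all 4 control libraries. With TMM scaling, though not with library totals only, Hist1 was higher in the 4 allogeneic libraries than in control.

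The test of syngeneic against control called 6 of 19 members, 3 higher and 3 lower, at an adjusted p under 0.05 (edgeR's quasi-likelihood test, Benjamini-Hochberg over 12695 genes), where 52.1% of all genes tested were called, 26.4% higher and 25.6% lower. Allogeneic against control called 2 higher and 4 lower of 19, against 57.3% of all genes (28.2% higher and 29.1% lower). Allogeneic against syngeneic called 1 higher and none lower, against 16.5% of all genes (10.1% higher and 6.38% lower). At an unadjusted p under 0.05 the counts were 8, 7 and 2 members. The shares called lie below the background in each comparison, and the members were also noisier: their median biological coefficient of variation was 0.622, against 0.225 for all genes tested. The median log2 fold change of the 19 was -0.06, -0.17 and -0.19 in syngeneic against control, allogeneic against control and allogeneic against syngeneic, beside -0.03, -0.07 and -0.01 over all genes tested. Hist2h4, Hist4h4 and Hist2h2bb passed the filter only through the control libraries, and Hist1h1a and Hist1h4c would not have passed without 1 of the groups, so a difference in that direction is built into their being tested. Leaving out these 5, 14 members remained, of which 3 were called higher and 2 lower in syngeneic against control, 2 higher and 3 lower in allogeneic against control, and 1 higher and none lower in allogeneic against syngeneic. The comparisons with control share the 4 control libraries.

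**Figure D4:**
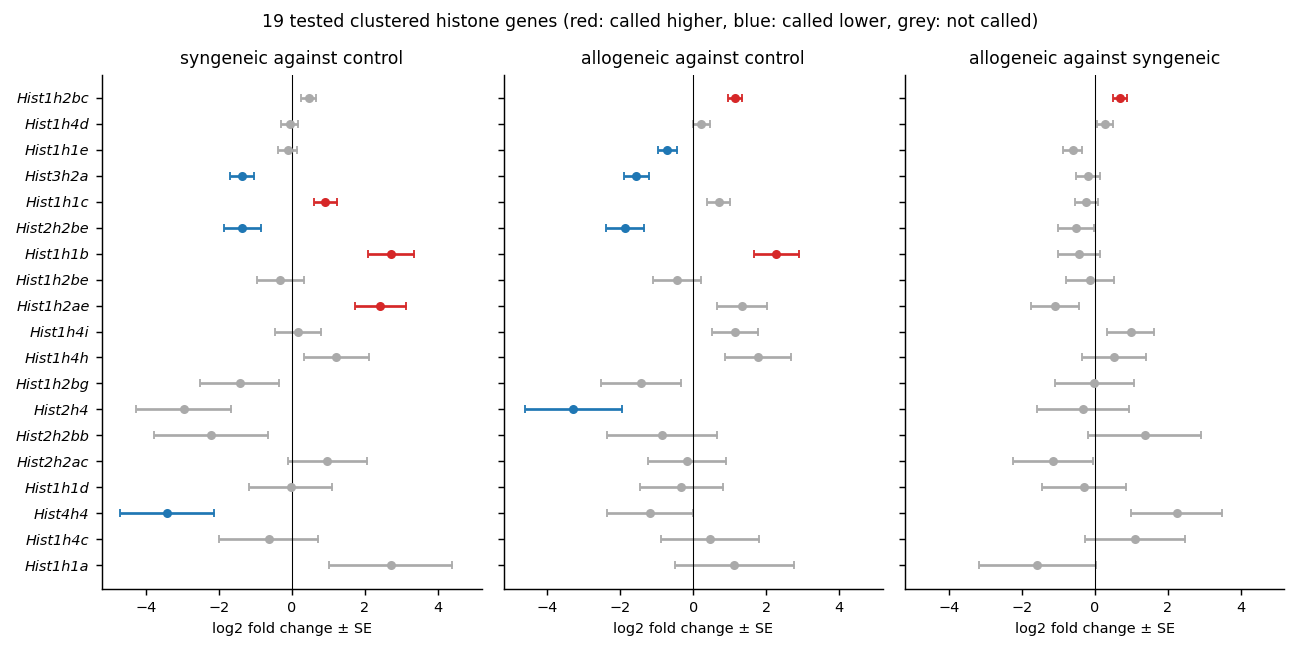
Log2 fold change ± SE of the 19 tested clustered histone genes, in order of mean CPM, in the 3 comparisons (edgeR quasi-likelihood fit of 12 libraries; red, called higher; blue, called lower; grey, not called). Hist1h1b lies to the right and Hist3h2a and Hist2h2be to the left of 0 in both comparisons with control, and 1 gene, Hist1h2bc, was called between the transplanted groups.

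Among linker histones, Hist1h1b, which encodes H1.5, rose in both comparisons with control. It was at 0.966, 0.133, 0.509 and 0.569 CPM in the control libraries, 4.21, 2.5, 2.33 and 5.23 in syngeneic, and 3.31, 2.40, 2.26 and 2.62 in allogeneic. All 8 transplanted libraries were above all 4 control libraries, and the transplanted groups overlapped. The log2 fold change was 2.70 ± 0.63 (SE) in syngeneic against control (6.52-fold, adjusted p = 0.00143) and 2.27 ± 0.62 in allogeneic against control (4.84-fold, adjusted p = 0.0043), and the test called it under all 21 alternative settings. Between allogeneic and syngeneic the difference was -0.43 ± 0.59, with a 95% interval from -1.58 to 0.72. Counts were low in control, with 5 to 39 per library.

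Hist1h1c, which encodes H1.2, was at 5.87, 2.87, 3.53 and 3.41 CPM in control, 8.07, 6.48, 6.68 and 8.41 in syngeneic, and 9.74, 5.42, 5.18 and 5.03 in allogeneic. Each syngeneic library lay above the control libraries, while the allogeneic group overlapped both others and its first library stood apart. It rose in syngeneic against control by a log2 fold change of 0.92 ± 0.33 (adjusted p = 0.0245), a call that was lost without control 2, 3 or 4 or syngeneic 1 or 4 (adjusted p up to 0.0696) and with library totals only (0.0594). In allogeneic against control the value was 0.69 ± 0.33 (adjusted p = 0.0776, and 0.0264 without control 1).

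Hist1h1e, which encodes H1.4, went the other way. It was at 9.61, 12.4, 6.23 and 7.81 CPM in control, 7.42, 8.96, 7.72 and 9.27 in syngeneic, and 5.29, 5.23, 5.18 and 6.33 in allogeneic. The allogeneic libraries were below all syngeneic ones and overlapped control through the highest of them. It fell in allogeneic against control, with a log2 fold change of -0.71 ± 0.26 (adjusted p = 0.0288), which was lost without control 1 or 2 or allogeneic 1, 2 or 3 (adjusted p up to 0.117), without the filter (0.0546) and with limma-voom (0.0631). The difference between allogeneic and syngeneic was -0.60 ± 0.26 (adjusted p = 0.14, and 0.0361 with library totals only). Its annotated exons overlap those of Hist1h2be on the same strand.

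As shares of the summed linker histone level, which move for each gene when any other changes, Hist1h1e made up 64.3 ± 10.4% in control, 41.9 ± 5.63% in syngeneic and 37.6 ± 6.66% in allogeneic libraries. Hist1h1b made up 3.98 ± 2.12%, 17.3 ± 4.56% and 17.7 ± 0.187%, and Hist1h1c 28.4 ± 7.15%, 36.9 ± 1.85% and 41.6 ± 7.25%. The lowest Hist1h1e share in control, 55.4%, was above the highest in the transplanted libraries, 48.3%. The Hist1h1e level itself did not pass the test in syngeneic against control (-0.11 ± 0.26, adjusted p = 0.756). Summed H1 was 13.9 ± 3.10, 20.1 ± 2.72 and 14.9 ± 2.68 CPM. The remaining linker genes Hist1h1d and Hist1h1a were not called in any comparison.

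In H2A, a fall of Hist3h2a stood beside a rise of Hist1h2ae. Hist3h2a was at 12.6, 9.74, 15.6 and 8.09 CPM in control, 5.79, 4.61, 2.66 and 4.72 in syngeneic, and 2.96, 5.42, 4.32 and 2.91 in allogeneic. Every transplanted library was below every control library and the transplanted groups overlapped. Its log2 fold change was -1.37 ± 0.33 in syngeneic (adjusted p = 0.00192) and -1.56 ± 0.33 in allogeneic against control (adjusted p = 0.000584), called under all 21 alternatives. Between the transplanted groups the difference was -0.19 ± 0.33 (95% interval -0.83 to 0.46). Exons of Hist3h2a overlap Trim17 on the same strand, and the row of Trim17 itself had at most 10 counts in a library.

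Hist1h2ae was at 0.223, 0.504, 1.10 and 0.853 CPM in control, 2.99, 3.06, 3.78 and 4.62 in syngeneic, and 3.56, 0.587, 1.52 and 1.15 in allogeneic. The syngeneic libraries were all above control, while the allogeneic libraries spread from the control range to the syngeneic range. The log2 fold change was 2.42 ± 0.70 in syngeneic against control (5.36-fold, adjusted p = 0.00696), called under all 21 alternatives. In allogeneic against control it was 1.34 ± 0.68 (adjusted p = 0.1) and in allogeneic against syngeneic -1.09 ± 0.67 (adjusted p = 0.317, 95% interval -2.39 to 0.22). Hist3h2a held 90.0 ± 4.90% of the H2A level in control, 49.4 ± 11.1% in syngeneic and 65.3 ± 18.1% in allogeneic libraries, and Hist1h2ae 5.39 ± 2.99%, 41.0 ± 9.18% and 27.2 ± 16.3%. Summed H2A was 12.7 ± 3.32, 8.90 ± 1.18 and 6.08 ± 1.26 CPM.

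Hist1h2ae lies head to head with the H2B gene Hist1h2bg, and their promoter windows overlap by 279 bases, so that the Hist1h2ae window printed above, read from the other strand, is nearly the whole window of Hist1h2bg (chr13:23571150-23571449, plus strand). Of 9 such divergent H2A and H2B pairs among the members, with overlaps of 220 to 279 bases, this was the only pair in which both genes had more than 100 counts. Hist1h2bg was at 1.61, 1.01, 0.901 and 1.01 CPM in control, 0.0668, 0.129, 0.849 and 0.632 in syngeneic, and 0.284, 0.0801, 0.80 and 0.50 in allogeneic. All transplanted libraries were below control, yet the log2 fold changes of -1.43 ± 1.09 and -1.44 ± 1.09 were not called (adjusted p = 0.293 and 0.277), on as few as 3 counts in a library. Of the pair's counts, Hist1h2ae took 12.2, 33.3, 54.9 and 45.8% in control, 97.8, 95.9, 81.7 and 88.0% in syngeneic, and 92.6, 88.0, 65.4 and 69.6% in allogeneic. The control shares were below all 8 transplanted shares. This pair was singled out after its values were seen, and the share was not tested. In Hist1h2ae 43.2% and in Hist1h2bg 49.7% of 50-base windows also occur in a gene elsewhere. How reads that fit several genes bear on the share was not tested.

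**Figure D5:**
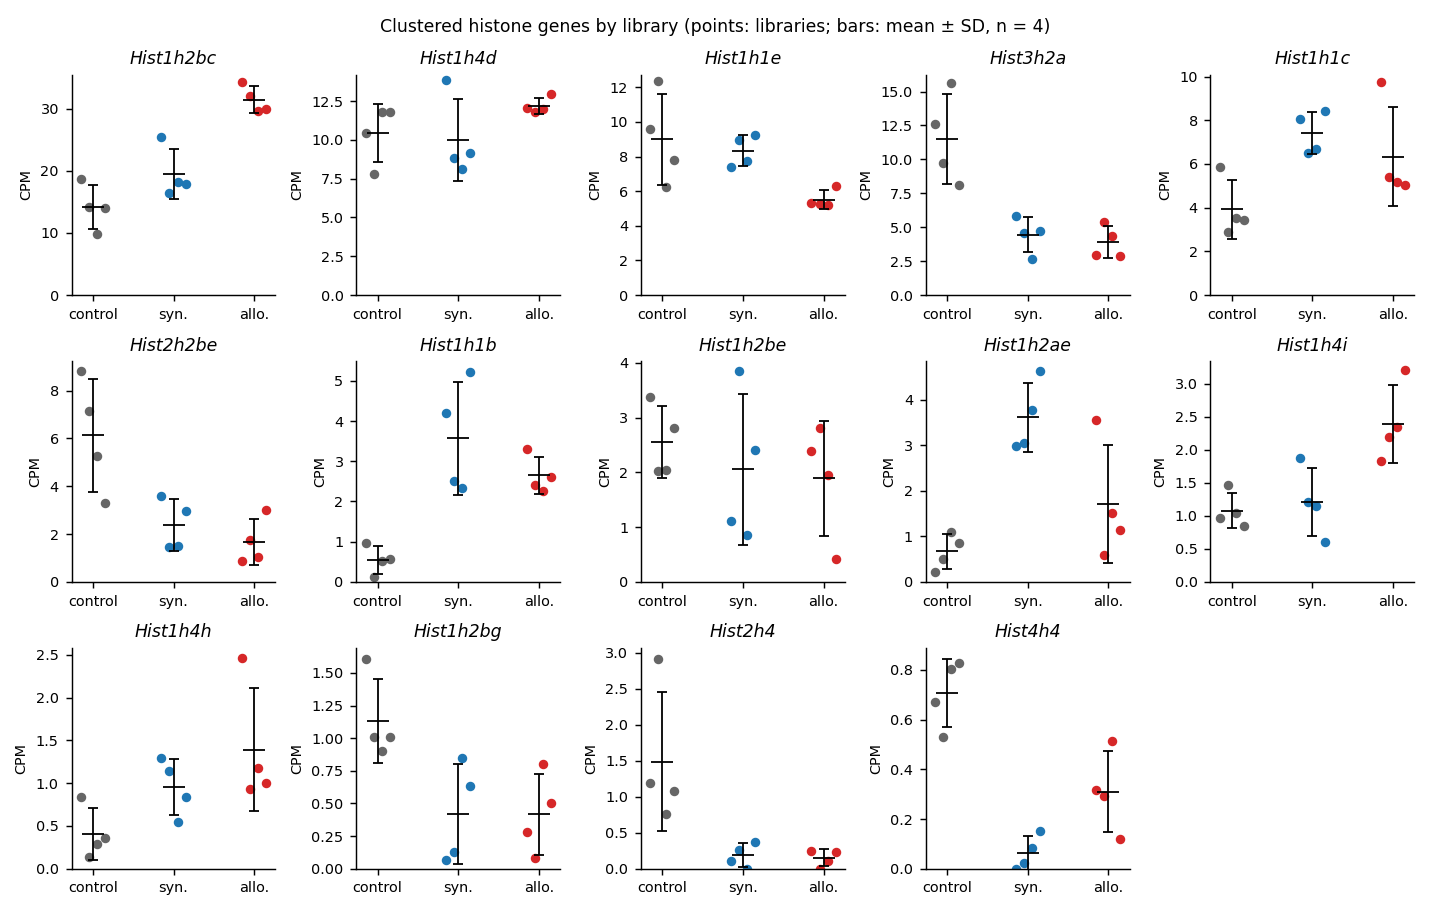
CPM of the 12 clustered histone genes with the highest mean and of Hist2h4 and Hist4h4, by library (points), with mean ± SD (bars, n = 4); axes start at 0 and differ between panels. Hist1h1b is higher and Hist3h2a lower in all 8 transplanted libraries than in control, and Hist1h2bc is highest in the 4 allogeneic libraries.

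In H2B, Hist1h2bc was the highest member and the 1 member called between the transplanted groups. It was at 18.7, 14.1, 9.81 and 14.1 CPM in control, 25.4, 16.5, 18.1 and 17.8 in syngeneic, and 34.2, 32, 29.6 and 29.9 in allogeneic. All allogeneic libraries were above all others, and syngeneic and control overlapped. The log2 fold change was 1.15 ± 0.20 in allogeneic against control (2.22-fold, adjusted p = 6.28e-05) and 0.69 ± 0.19 in allogeneic against syngeneic (1.62-fold, adjusted p = 0.0179). The latter call was lost without syngeneic 2, 3 or 4 or allogeneic 1 (adjusted p 0.0503 to 0.0609), with library totals only (0.49, adjusted p = 0.0752) and with an offset for GC content and length (0.38, adjusted p = 0.207). With that offset the value against control fell to 0.45 (adjusted p = 0.055). In syngeneic against control it was 0.46 ± 0.19 (adjusted p = 0.0573, and 0.016 to 0.787 over the alternatives).

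Hist2h2be fell. This H2B gene was at 8.82, 7.14, 5.25 and 3.31 CPM in control, 3.61, 1.44, 1.51 and 2.98 in syngeneic, and 0.882, 1.74, 1.06 and 3.0 in allogeneic. All allogeneic libraries were below control, and 1 syngeneic library was above the lowest control library. The log2 fold change was -1.87 ± 0.51 in allogeneic against control (adjusted p = 0.00452, called under all 21 alternatives) and -1.36 ± 0.51 in syngeneic against control (adjusted p = 0.0309), the latter lost without control 1 or 2 or syngeneic 2 or 3 (adjusted p up to 0.111). Hist1h2bc rose from 56.2 ± 5.44% of the H2B level in control to 77.7 ± 5.09% in syngeneic and 87.2 ± 0.657% in allogeneic libraries, as Hist2h2be went from 24.0 ± 6.18% to 9.28 ± 3.01% and 4.72 ± 2.93%. Hist1h2be was at 2.02 to 3.37, 0.849 to 3.86 and 0.412 to 2.80 CPM in the 3 groups, with no call. Summed H2B was 25.3 ± 6.79, 24.9 ± 4.18 and 36.1 ± 2.56 CPM.

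In H4, Hist1h4d held most of the counts and was not called in any comparison. It was at 10.4, 7.78, 11.8 and 11.8 CPM in control, 13.9, 8.85, 8.13 and 9.12 in syngeneic, and 12.1, 11.8, 12 and 13 in allogeneic. The groups overlapped, and the log2 fold changes were -0.06 ± 0.23, 0.22 ± 0.23 and 0.29 ± 0.23 in syngeneic against control, allogeneic against control and allogeneic against syngeneic, none called, with 95% intervals within -0.51 and 0.74. It made up 72.1 ± 8.79%, 78.4 ± 3.46% and 72.2 ± 3.17% of the H4 level in control, syngeneic and allogeneic. Summed H4 was 14.4 ± 0.962, 12.7 ± 3.17 and 16.9 ± 1.29 CPM.

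Hist2h4 and Hist4h4 were tested only because their control libraries passed the filter, so their lower values in the transplanted groups follow in part from that choice. Hist2h4 had 48, 110, 39 and 42 counts in the control libraries, 5, 12, 0 and 15 in syngeneic, and 8, 0, 4 and 8 in allogeneic. All 8 transplanted libraries were below control. The log2 fold change was -3.29 ± 1.34 in allogeneic against control (adjusted p = 0.0433). In syngeneic against control it was -2.97 ± 1.31 (adjusted p = 0.0663, and 0.0143 to 0.203 over the alternatives). The call in allogeneic against control was lost without any 1 of the libraries other than syngeneic 3 (adjusted p up to 0.142), without the filter (0.0699) and with the replicate block (0.0832). Hist4h4, the only gene of its cluster, had 27, 20, 41 and 32 counts in control, 0, 1, 3 and 6 in syngeneic, and 10, 11, 18 and 4 in allogeneic. The transplanted libraries were all below control, and the syngeneic and allogeneic libraries overlapped. Its log2 fold change was -3.43 ± 1.29 in syngeneic against control (adjusted p = 0.0332, lost in 7 of the runs that left out a library, without the filter and with the replicate block, adjusted p up to 0.0994) and -1.18 ± 1.17 in allogeneic against control (adjusted p = 0.41). Hist1h4i was at 0.853 to 1.46, 0.606 to 1.87 and 1.83 to 3.21 CPM in the 3 groups, and Hist1h4h at 0.133 to 0.842, 0.547 to 1.29 and 0.934 to 2.46. Both were higher in every allogeneic than in every control library, with log2 fold changes of 1.15 ± 0.64 (adjusted p = 0.136) and 1.76 ± 0.91 (adjusted p = 0.106) that were not called. Over the alternatives the adjusted p was 0.0565 to 0.481 for Hist1h4i and 0.0357 to 0.277 for Hist1h4h.

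Replication-independent histone variants rose in the transplanted groups. All 9 tested of 12 rose in both comparisons with control, with median log2 fold changes of 1.23 and 1.19, and 1, H2afv, was lower in allogeneic than in syngeneic (log2 fold change -0.70). Of all genes tested, 26.4% were called higher in syngeneic and 28.2% in allogeneic against control, and 6.38% lower in allogeneic against syngeneic. The sum of the 12 variants was 996 ± 47.8 CPM in control, 2225 ± 59.7 in syngeneic and 2275 ± 153 in allogeneic libraries. H2afz, which encodes H2A.Z, was at 243 ± 22.4, 579 ± 12.9 and 633 ± 33.2 CPM (log2 fold change 1.25 ± 0.07 in syngeneic and 1.38 ± 0.07 in allogeneic against control). H3f3b, which encodes H3.3, was at 491 ± 43.3, 1098 ± 66.0 and 1119 ± 138 CPM, with log2 fold changes of 1.16 ± 0.08 and 1.19 ± 0.08. Cenpa, the centromeric H3 variant, rose by 2.84 ± 0.23 and 2.98 ± 0.23. Adjusted p for these 3 genes was at most 8.33e-09 in both comparisons. H2afx rose by 2.668 ± 0.385 and 1.63 ± 0.374, and Cenpa and H2afx had the largest rises of the list in both. Whether the variants rose with or without replication was not tested.

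Among genes that process or transcribe histone mRNA, 6 of 23 rose and 3 (Hinfp, Cpsf4 and Cstf1) fell in syngeneic against control, and 7 rose and 4 (Cpsf4, Cstf1, Cstf3 and Cdk2) fell in allogeneic against control. Over all genes tested, 26.4% were called higher and 25.6% lower in syngeneic, and 28.2% and 29.1% in allogeneic against control, so the share of this list that was called, in either direction together, lay below the background in both comparisons. Slbp, the stem-loop binding protein, was at 83.7 ± 3.49, 126 ± 16.5 and 107 ± 6.88 CPM and rose by 0.59 ± 0.10 and 0.36 ± 0.10 on the log2 scale (adjusted p = 5.3e-05 and 0.00423). Cstf2, a cleavage stimulation factor, rose by 1.27 ± 0.16 and 0.80 ± 0.16, and Cpsf4, a cleavage and polyadenylation factor, fell by 1.24 and 1.0 (SE 0.14 in both). Lsm10, part of the U7 snRNP that cuts histone pre-mRNA, rose in allogeneic against syngeneic by 0.54 ± 0.14 (adjusted p = 0.00918). Cstf2 was the 1 gene of this list called lower there (log2 fold change -0.47 ± 0.16, adjusted p = 0.0488). Of 20 histone chaperones, which carry histones to DNA, 11 rose and 7 fell in syngeneic and 10 rose and 6 fell in allogeneic against control, beside the same background shares. Hjurp, which loads the centromeric H3 variant, fell by 2.46 and 2.33, and Chaf1b, of chromatin assembly factor 1, rose by 3.26 ± 0.34 and 2.86 ± 0.33. In allogeneic against syngeneic 3 chaperones rose, Npm1 by 0.74 ± 0.06, Daxx by 0.83 ± 0.26 and Hat1 by 0.43 ± 0.12, and none fell. In that comparison 10.1% of all genes tested were called higher and 6.38% lower.

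Markers of microglia and of some other cells moved with the groups, and not all members of a list moved alike. The summed level of 10 microglia markers, all detected, was 45349 to 51496 CPM in control, 42711 to 45121 in syngeneic and 34884 to 37516 in allogeneic libraries. Of these, 6 rose and 4 fell in syngeneic against control, and 4 rose and 6 fell in allogeneic against control: Tmem119 and Csf1r fell in both, P2ry12 rose in syngeneic and fell in allogeneic, and C1qa and Aif1 rose in both. The 6 monocyte markers summed to 16.6 to 20, 37.8 to 70.5 and 286 to 459 CPM, mostly Ms4a4c (mean 229 CPM in allogeneic) and Plac8 (77.9), while Ly6c2 reached a mean of 1.6 CPM and Ccr2 fell from 9.48 to 4.0 CPM in allogeneic against control. The 5 choroid plexus markers, mostly Ttr, summed to 12.9 to 96.7, 1090 to 1925 and 338 to 601 CPM, the 5 astrocyte markers to 0.842 to 5.94, 16.4 to 28.5 and 13.4 to 27.7 CPM, and the 4 neuron markers to 1.57 to 2.13, 5.35 to 11.6 and 3.62 to 8.81 CPM. Of 5 NK cell markers, Ncr1, Gzma and Prf1 were at 0 in every library, and the sum, mostly Klrb1c, was 0 in control, 0 to 0.0446 in syngeneic and 0.853 to 2.30 CPM in allogeneic libraries. The 7 T cell markers in the table were at 0.278 to 4.24 CPM over all libraries. Oligodendrocyte markers summed to 51.9 to 65.7, 44 to 76.6 and 55.1 to 62.1 CPM in the 3 groups. B cell markers summed to 19.1 to 32.8, 13.4 to 27.1 and 18 to 27.6 CPM, and endothelium markers to 19.7 to 28.4, 14.5 to 24 and 11.7 to 24.3. Neutrophil and erythroid sums were highest in a control library, at 28.1 and 14.8 CPM. The groups overlapped for each of these cell types. The part of the listed cell types in the histone values was not tested. Clustered genes known from spermatogenic cells, 3 in number, stayed at 0.0315 CPM or less.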

How the data were processed

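RNA-seq read counts per gene symbol were deposited by the authors as 1 table of raw counts for 12 libraries. Trimming used Trimmomatic 0.36 and alignment to mm9 used STAR 2.5.2b, per the submitters' processing notes. No source used here gives the counting tool, the annotation, the strand setting or the RNA selection. Names, transcript models, GC content and lengths came from GENCODE M21 and promoters from RefSeq, both of another build than the files, so their coordinates place no count. Of 24328 symbols, 23298 matched directly, 653 by a synonym and 377 not.

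In R 4.3.3 with edgeR 4.0.16, genes were filtered with filterByExpr (minimum count 10), scaled with TMM factors and fitted over all 12 libraries with group means (robust quasi-likelihood), with Benjamini-Hochberg adjustment over 12695 genes. CPM use TMM-scaled library sizes. Sums over members carry no test. Alternative settings were scaling by RLE factors or by library totals only, no filter or a minimum of 1 CPM in 4 libraries, DESeq2 1.42.0, voom in limma 3.58.1, a fit of the compared groups alone, the replicate number as a block, an offset for GC content and length (loess span 0.3), and each library left out. Counts were also simulated from each gene's real mean over all 12 libraries, with the changed genes drawn at random from all genes that passed the filter. With 12359 genes, the test of allogeneic against syngeneic called 59.8% of changes of 1 log2 unit and 84.5% of changes of 2. For syngeneic against control (12383 genes) the shares were 49% and 71.1%, and for allogeneic against control (12352 genes) 57.3% and 68.7%. Of the calls, 4.76, 1.68 and 5.38% were false, in the same order of comparisons. The members were noisier than the genes drawn from (median biological coefficient of variation 0.622 against 0.225), so these shares do not describe the members. Only 96 to 99 tested genes were changed at each size, while 16.5 to 57.3% of all genes were called in the real data. The shares called and the false shares therefore do not carry over to the real comparisons.

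The members and gene lists were chosen with earlier results of these data known. Members called in any comparison are named with their values, per-library values are given for the 12 with the highest mean CPM and for every called member, and of companion genes called ones are named; Plk1 was named after its values were seen. Libraries came from separate mice per the labels; no sequencing batch is stated.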

Additional observations from a re-analysis of the deposited data

Results flagged for a closer look

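Within groups of 4 libraries, 8 of 57 member and group combinations (14.0%) had a library whose gap to the others was too large a part of the group's range by Dixon's 95% critical value; chance flags about 1 in 20 such groups. Of linker histones, Hist1h1c stood at 9.74 CPM in allogeneic 1 against 5.03 to 5.42 in the other allogeneic libraries. Hist1h1e stood at 6.33 CPM in allogeneic 4 against 5.17 to 5.29. Hist1h1a stood at 0.194 CPM in syngeneic 2 against 0.401 to 0.429, and at 0.441 CPM in allogeneic 4 against 0 to 0.0315.

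Among core histones, Hist1h4h was at 2.46 CPM in allogeneic 1 against 0.934 to 1.17 in the others. Hist1h2bg was at 1.61 CPM in control 1 against 0.901 to 1.01, and Hist2h2bb at 1.44 CPM in control 1 against 0.49 to 0.543. Hist2h2ac was at 0.147 CPM in allogeneic 4 against 0.314 to 0.32.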

How the results depend on the processing

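Hist1h1b and Hist3h2a against control in both transplanted groups, Hist1h2ae in syngeneic against control and Hist2h2be in allogeneic against control kept their direction and their call under all 21 alternatives. The count of members called higher in allogeneic against syngeneic, 1, went to 0 with library totals only and with the GC and length offset, and ranged from 0 to 1 when 1 library was left out; none was called lower except 1, Hist1h1e, with library totals only. In syngeneic against control 5 rather than 3 were called lower with limma-voom, and 1 to 3 when a library was left out. In allogeneic against control 1 rather than 2 were called higher with the GC and length offset, and 2 rather than 4 lower without the filter, or 2 to 4 when a library was left out. With library totals only, which shifts the median of all genes to -0.22, -0.20 and -0.44 for allogeneic against syngeneic and for syngeneic and allogeneic against control, the summed level was 31.6 CPM for H2B in allogeneic, 16.3 and 14.8 CPM for H4 in control and allogeneic, and 65.2 CPM for all members in allogeneic.

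Small differences that were not called changed sign. Hist1h4d was at -0.0207 with the GC and length offset in allogeneic against syngeneic, and at -0.15 with library totals only and -0.41 with that offset in allogeneic against control. Hist1h4i in syngeneic against control was at -0.00976 with library totals only, -0.0831 with that offset and -0.128 to 0.389 when 1 library was left out. In syngeneic against control, leaving out 1 library gave -0.263 to 0.0238 for Hist1h4d, and -0.252 to 0.086 for Hist1h1e. Hist2h4 in allogeneic against syngeneic was at -0.723 to 0.25 when 1 library was left out and at 0.13 with the replicate block. The cause of these changes was not tested.

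The replicate number did not pair the libraries: same-numbered libraries of different groups correlated in their deviations from the group means at -0.015 to 0.032 over 12 pairs, and other pairs at -0.037 to 0.035. With the number as a block, 4 members were called higher and 2 lower in syngeneic against control, against 3 and 3 without it (Hist1h2bc gained its call and Hist4h4 lost it), 2 higher and 3 lower in allogeneic against control (Hist2h4 lost it), and 1 higher and none lower in allogeneic against syngeneic. Low counts limit most members: 50 of 68 had under 100 counts over 12 libraries, 12 of them none.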
